A study of Mus musculus with 82 samples.

Results

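The T cell receptor complex and its proximal signalling genes are 34 protein-coding genes, chosen by symbol for their known roles, out of 21823 genes shared by all count tables. They are 4 chains of the CD3 complex, 6 kinases, 8 adaptors, 5 effectors, 4 phosphatases, 4 attenuators and 3 surface regulators. All 34 were found, and all passed the filter on low counts in every fit. The genes of the receptor's own alpha and beta constant regions were not analysed here.

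RNA came from 82 libraries of mouse T cells specific for ovalbumin, sorted by fluorescence from spleen and lymph nodes. The CD8 cells are named OT-I and the CD4 cells OT-II. Each kind carries a transgenic receptor for an ovalbumin peptide, and both were transferred into the same wild-type recipients, which the labels give as C57BL/6 in the prophylactic experiment. Recipients received saline, plain ovalbumin (OVA, 5 µg) or else pGal-OVA, the same antigen with synthetic glycosylation, called pGal here, and cells were collected 4 days later. The labels give the pGal amount both as 5 µg and as the molar equivalent of the OVA. In the prophylactic experiment antigen came 1 day after transfer, and each library pooled 3 mice. In the therapeutic experiment all recipients, saline controls included, had a subcutaneous immunization with ovalbumin in complete Freund's adjuvant on the day after transfer. Treatment followed one month on, and each library was 1 mouse. Prophylactic OT-I groups had 5 libraries per treatment, and prophylactic OT-II groups had 5 after saline, 4 after OVA and 5 after pGal. Wild-type recipients keep T cells of their own, and the labels do not name the markers of the sort. The sources used here give no ages.

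The T cell receptor has no enzyme of its own and signals through the paired CD3 chains, whose tyrosine motifs are phosphorylated by LCK and FYN and then bind the kinase ZAP70. ZAP70 phosphorylates the scaffolds LAT and SLP-76, on which phospholipase C gamma, VAV1 and GRAP2 assemble, and the signal passes to calcium, RAS and NF-kappaB. Phosphatases, inhibitory adaptors and the ubiquitin-associated STS proteins set the threshold of this signal, and several of them are known to be induced in T cells that have met antigen.

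Libraries held 21.2 to 68.2 M counts each. Cd4 and Cd8a, the coreceptor genes of the CD4 and CD8 lineages, were used to check the labels. After saline in the prophylactic experiment Cd8a was at 1060 ± 114 CPM (TMM-normalized counts scaled to library size) in OT-I and 5.81 ± 7.16 CPM in OT-II cells, and Cd4 at 9.63 ± 16.9 and 647 ± 105 CPM (SD, n = 5 each). In the therapeutic experiment 42 of 53 libraries carried the coreceptor of their labelled cell type, and 11 carried that of the other, by label 6 OT-I libraries (saline replicates 3 and 6, pGal replicates 5 and 7, OVA replicates 6 and 8) and 5 OT-II libraries (saline replicate 3, pGal replicates 5 and 7, OVA replicates 6 and 8). Therapeutic values below come from the 42 matching libraries, which were 6 saline, 8 OVA and 8 pGal for OT-I and 6, 6 and 8 for OT-II. In the prophylactic experiment 4 libraries were rich in B cell transcripts, with Cd79a above 100 CPM: OT-II pGal batch 1 replicate 3, OT-II OVA batch 2 replicate 2, OT-II saline batch 2 replicate 1 and OT-I saline batch 2 replicate 1. Of the matching therapeutic libraries, OT-II saline replicate 7, OVA replicate 2 and pGal replicates 2, 3 and 8 also exceeded 100 CPM, at 107 to 122 CPM. Therapeutic libraries were neither marked nor left out on this ground. A pair of prophylactic OT-I libraries, pGal batch 1 replicate 2 and OVA batch 1 replicate 1, held Cd4 above 100 CPM. Prophylactic OT-II OVA batch 2 replicate 2 and pGal batch 1 replicate 3 held Cd8a at 118 and 87.3 CPM. The other prophylactic OT-II libraries held 0.331 to 18.4 CPM. Summed myeloid markers in the same OVA and pGal libraries were 1771 and 2843 CPM, beside group medians of 117 and 91.1 CPM.

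Averaged over the 34 genes, the level was alike in most libraries. Group means of log2(CPM + 1) lay between 8.07 and 8.39 in the 12 groups. Prophylactic OT-I groups were at 8.32 ± 0.10 after saline, 8.37 ± 0.07 after OVA and 8.39 ± 0.08 after pGal (SD, n = 5 each). Prophylactic OT-II groups were at 8.22 ± 0.08 after saline (SD, n = 5), 8.07 ± 0.40 after OVA (SD, n = 4) and 8.23 ± 0.20 after pGal (SD, n = 5). In each OT-II antigen group 1 library lay far below the others, the OVA library at 7.47 and the pGal library at 7.88, and these were the richest in B cell transcripts of their groups. In these bulk libraries, fewer T cells and less RNA per T cell cannot be told apart. Therapeutic group means lay between 8.12 and 8.39, and the lowest library was OT-II pGal replicate 9 at 7.45, in which mitochondrially encoded transcripts summed to 61504 CPM beside a group median of 8952 CPM. Their part in its low mean was not tested.

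**Figure D1:**
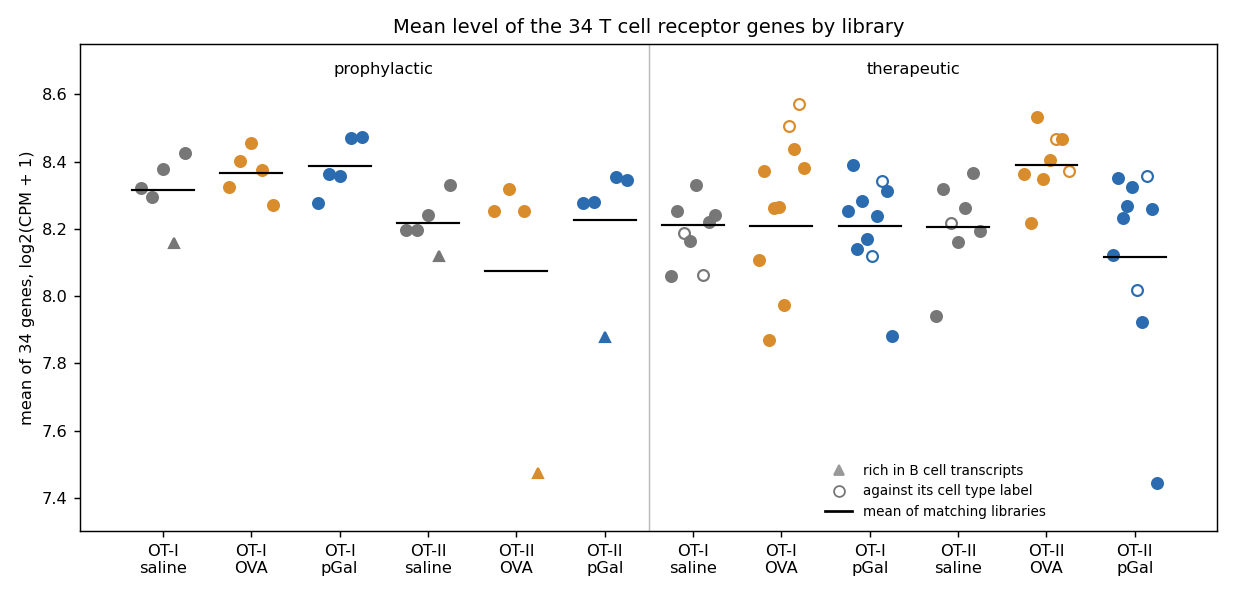
Mean of log2(CPM + 1) over the 34 genes (vertical axis) for each of the 82 libraries, by cell type and treatment, with prophylactic libraries left and therapeutic right. Lines are means of the libraries that match their label, triangles are prophylactic libraries rich in B cell transcripts, and open circles carry the coreceptor of the other cell type. Therapeutic libraries were not marked for B cell transcripts. The lowest points, 7.47 and 7.45, are single libraries below groups that otherwise overlap.

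No gene of the receptor chains, and neither Lck nor Zap70, passed the test between the cell types of the prophylactic experiment after saline. There Cd3e was at 983 ± 107 CPM in prophylactic OT-I cells and 1037 ± 109 CPM in prophylactic OT-II cells (SD, n = 5 each). Lck, the kinase that starts the cascade, was at 2198 ± 247 and 2247 ± 248 CPM in the same groups. Zap70 was at 245 ± 37.9 CPM in OT-I and 211 ± 17.2 CPM in OT-II cells. Cd247, the zeta chain, was at 393 ± 40.4 CPM in OT-I and 521 ± 69.6 CPM in OT-II cells, a log2 difference of -0.43 (95% interval -0.89 to 0.03, adjusted p = 0.201), lower in OT-I cells in both batches. CPM is not scaled to transcript length, so these levels are compared between groups and not between genes.

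Whether antigen given to naive recipients altered these genes in CD4 cells was addressed first by comparing pGal with saline in prophylactic OT-II libraries. After pGal 4 of the 34 genes rose, Ubash3b, Sla, Csk and Ptpn22, and 4 fell, Txk, Sit1, Ptpn2 and Sla2. Of all 14128 genes tested, 11.7% were called in this comparison at an adjusted p under 0.05, 6.37% higher and 5.34% lower. The 4 risen genes all encode proteins that are known to restrain receptor signalling. Among the 4 fallen genes Txk encodes a TEC family kinase, and the other three encode restraining proteins too, so inhibitors moved in both directions. The median log2 fold change of the 34 genes was 0.10, beside 0.04 over all genes tested.

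Ubash3b, which encodes STS-1, a phosphatase that dephosphorylates ZAP70, was the member with the greatest rise. Its CPM in the 5 saline libraries was 30.9, 24.2, 27.5, 28.1 and 35.6. In the 5 pGal libraries it was 76.4, 68.4, 50.7, 68.8 and 81.6. Every pGal library lay above every saline library, and the lowest of them was the one rich in B cell transcripts. The log2 fold change was 1.24 (SE 0.15, adjusted p = 0.000224, edgeR quasi-likelihood test with Benjamini-Hochberg adjustment), from 29.3 ± 4.28 to 69.2 ± 11.7 CPM (SD, n = 5 each). Its relative Ubash3a, which encodes STS-2, an adaptor with little phosphatase activity, had a log2 fold change of 0.18 (95% interval -0.37 to 0.73, adjusted p = 0.71).

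Txk fell most clearly. Its CPM in the saline libraries was 229, 212, 222, 176 and 190. In the pGal libraries it was 114, 107, 89.8, 87.8 and 79.7. The groups did not overlap, and the batch 2 libraries were the lowest of each group. The log2 fold change was -1.11 (SE 0.14, adjusted p = 0.000304), from 206 ± 22.0 to 95.5 ± 14.1 CPM (SD, n = 5 each).

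Sit1, which encodes a transmembrane adaptor that recruits the phosphatase SHP-2 and can inhibit receptor signalling, was at 264, 222, 221, 147 and 184 CPM after saline. After pGal it was at 88.2, 83.5, 69.7, 95.2 and 121 CPM. No pGal library reached the lowest saline library. The log2 fold change was -1.14 (SE 0.28, adjusted p = 0.0181), and it was -1.57 within batch 1 and -0.63 within batch 2. Trat1, which encodes another transmembrane adaptor, TRIM, was at 118 ± 24.4 CPM after saline and 60.2 ± 15.5 CPM after pGal (SD, n = 5 each), a log2 fold change of -0.93 that did not pass the threshold (adjusted p = 0.0614).

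The promoters of these 3 genes are shown because they hold the start sites of the members that moved furthest. Each run is RefSeq sequence on GRCm38.p6, 250 bases before to 50 bases after the gene's most upstream start in the RefSeq table. It is read 5′ to 3′ on the minus strand, which all 3 genes use. Txk is at chr5:72752728-72753027, Sit1 at chr4:43483660-43483959 and Ubash3b at chr9:41158013-41158312. The GENCODE annotation of Ubash3b begins further upstream, at 41161697, so the gene has an annotated start outside its window. Capitals mark matches on either strand to TGANTCA (AP-1), GGAAA (the NFAT core), CCGGAA (ETS) or TGTGGT (RUNX), of which CCGGAA and GGAAA can overlap by 4 bases.
Txk: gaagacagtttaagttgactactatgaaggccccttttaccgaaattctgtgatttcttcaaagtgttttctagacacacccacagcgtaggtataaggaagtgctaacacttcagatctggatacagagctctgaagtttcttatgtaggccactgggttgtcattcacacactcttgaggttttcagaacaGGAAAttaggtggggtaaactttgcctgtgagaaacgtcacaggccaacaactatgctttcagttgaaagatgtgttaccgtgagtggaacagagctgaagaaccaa
Sit1: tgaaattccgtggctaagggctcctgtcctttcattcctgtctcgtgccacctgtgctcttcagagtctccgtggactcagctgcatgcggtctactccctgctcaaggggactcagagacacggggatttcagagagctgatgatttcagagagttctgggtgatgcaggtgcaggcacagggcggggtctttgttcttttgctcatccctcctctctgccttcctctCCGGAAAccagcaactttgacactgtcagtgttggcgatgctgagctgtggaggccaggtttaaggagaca
Ubash3b: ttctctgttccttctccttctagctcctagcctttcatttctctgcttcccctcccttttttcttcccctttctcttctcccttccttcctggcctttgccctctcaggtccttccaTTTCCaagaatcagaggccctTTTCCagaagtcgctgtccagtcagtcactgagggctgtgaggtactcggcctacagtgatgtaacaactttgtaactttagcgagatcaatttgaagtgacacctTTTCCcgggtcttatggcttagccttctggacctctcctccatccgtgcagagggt
The Txk run held 1 GGAAA match, Sit1 held 1 GGAAA match that overlaps its 1 CCGGAA match, and Ubash3b held 3 GGAAA matches, all on the opposite strand. GGAAA is common, being present in 61.3% of the 32851 promoters in the RefSeq table and in 20 of the 28 members that have one there. Each member counts once, whereas the 32851 were not reduced to 1 per gene. CCGGAA was in 14.9% of all promoters and 3 of the 28, TGTGGT in 16.8% and 4 of the 28, and TGANTCA in 7.81% and 0 of the 28. A match describes the letters in this window and does not mark a bound site.

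The remaining members that changed in this comparison did so by less. Sla, which encodes SLAP, an adaptor that promotes loss of receptor chains, was at 193, 183, 190, 203 and 286 CPM after saline. After pGal it was at 278, 272, 251, 381 and 342 CPM. The groups overlapped through saline batch 2 replicate 2, whose 286 CPM stood apart from the other 4, and the log2 fold change was 0.52 (SE 0.10, adjusted p = 0.00346). Sla2, which encodes the related SLAP-2, went the other way, from 136 ± 24.3 to 85.4 ± 11.9 CPM (SD, n = 5 each), without overlap. Its log2 fold change was -0.67 (SE 0.20, adjusted p = 0.0415). Exons of Sla2 share 731 bases with Rab5if on the opposite strand, and the sources used here do not say whether counting used strand, so reads of the pair may not be told apart.

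Csk, the kinase that phosphorylates the inhibitory tyrosine of LCK, rose from 209 ± 16.8 to 299.5 ± 32.4 CPM (SD, n = 5 each), without overlap (log2 fold change 0.52, SE 0.12, adjusted p = 0.0105). Ptpn22, the phosphatase that acts with CSK, rose from 244 ± 20.9 to 353 ± 68.3 CPM (0.53, SE 0.15, adjusted p = 0.0339). Its pGal libraries overlapped saline only through the one rich in B cell transcripts, at 242 CPM. Ptpn2, a phosphatase of LCK, FYN and JAK kinases, fell from 111 ± 4.21 to 82.5 ± 8.76 CPM, without overlap (-0.43, SE 0.11, adjusted p = 0.0196). Groups were apart for 7 of the 34 genes, 6 of the 8 called ones and Prkcq, which encodes the protein kinase C theta that leads to NF-kappaB and did not pass the test (-0.38, adjusted p = 0.283). How many of all genes had groups apart was not counted, so the 7 have no background to be read against.

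**Figure D2:**
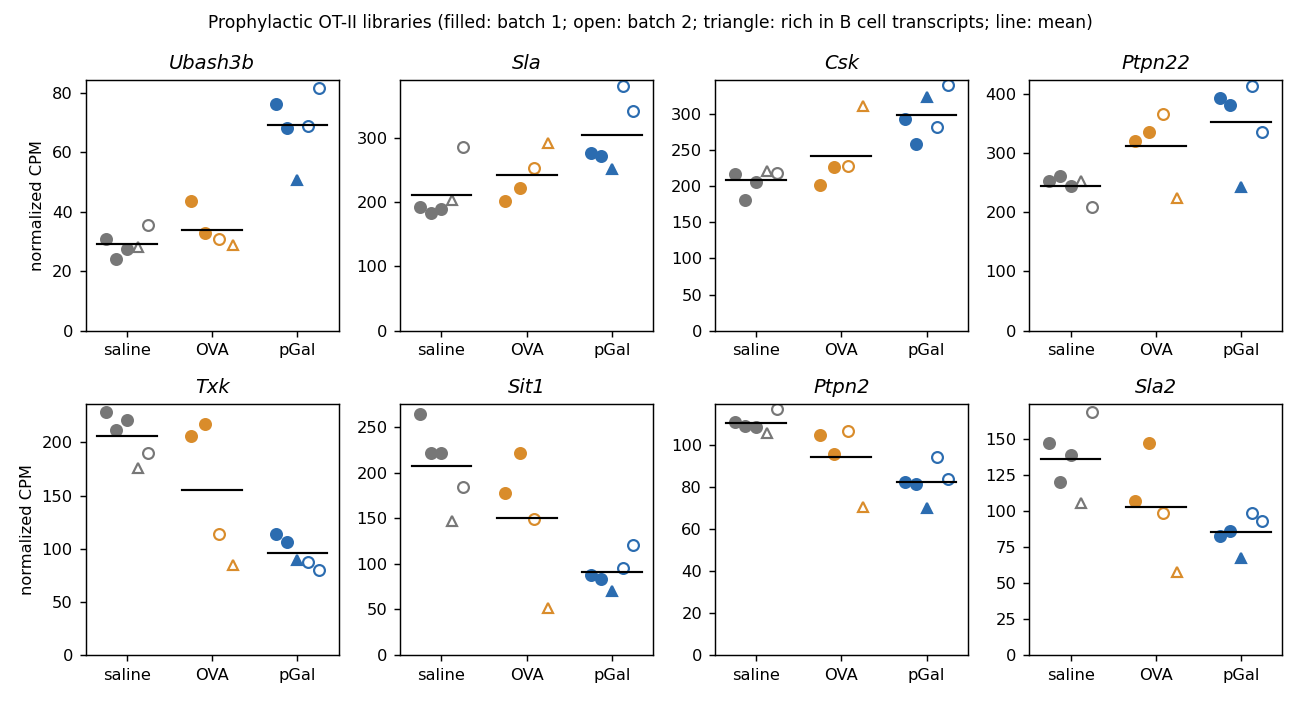
Normalized CPM (vertical axes, from 0) of the 8 genes called between pGal and saline, in each prophylactic OT-II library by treatment. Filled symbols are batch 1, open symbols batch 2, triangles libraries rich in B cell transcripts and lines group means. Ubash3b after pGal is above 50 CPM in each library and below 44 CPM in each of the others, whereas OVA libraries of Txk span 84.7 to 217 CPM.

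The chains and core kinases of the receptor did not pass the test after pGal in these cells. Log2 fold changes and 95% intervals were -0.03 (-0.52 to 0.46) for Cd3e, 0.22 (-0.37 to 0.81) for Cd3d and 0.26 (-0.34 to 0.87) for Cd3g. Cd247 had 0.61 (-0.02 to 1.23). The upper ends of these intervals exceed the change of Sla and Csk for Cd3d, Cd3g and Cd247, so the test does not show that the chains were unaltered. Lck had 0.08 (-0.48 to 0.64) and Zap70 0.26 (-0.19 to 0.71). Of the scaffolds, Lat had -0.12 (-0.80 to 0.56) and Lcp2, which encodes SLP-76, had 0.14 (-0.35 to 0.64).

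B cell transcripts differed between libraries of this comparison. None of 13 B cell marker genes was called, but their summed level ranged from 58.8 to 880 CPM after saline, from 75.3 to 8024 CPM after OVA and from 46.7 to 4181 CPM after pGal. No library of the OVA and pGal groups had any of the 13 at 0. Without the 3 OT-II libraries rich in B cell transcripts, an alternative chosen after the data were seen, 14 of the 34 genes were called among 2067 genes in all. They included the same 8 genes in the same directions, and Cd247, Cd5, Fyn, Lcp2 and Ubash3a higher and Trat1 lower. Ubash3b then had a log2 fold change of 1.30 and Txk of -1.05. Leaving out 1 library gave 4 to 8 called members, with 4 without pGal batch 1 replicate 2 and 5 without pGal batch 1 replicate 1, and Ubash3b, Txk, Sla and Csk were called in all 10 of these fits. Ptpn22 lost its call in 8 of them, Sla2 in 7, Sit1 in the 2 just named and Ptpn2 in the first of those. In batch 1 alone 9 of the 34 genes were called. For that fit and for those that left out 1 library the count over all genes is not given here. In batch 2 alone, with 2 libraries per group, 0 members and 0 genes in all were called by edgeR, although Ubash3b (1.23), Txk (-1.14), Sla (0.55), Csk (0.48), Ptpn22 (0.68), Sla2 (-0.53) and Ptpn2 (-0.34) kept their direction.

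Glycosylated and plain antigen were then compared directly in the same cells. Ubash3b was higher after pGal than after OVA, and Txk was lower, 2 of the 34 genes beside 1.87% of all genes called. Ubash3b was at 43.7, 32.7, 30.7 and 28.9 CPM in the 4 OVA libraries, all below the 5 pGal libraries listed above (log2 fold change 1.02, SE 0.16, adjusted p = 0.00883). Txk was at 206 and 217 CPM in the batch 1 OVA libraries and at 114 and 84.7 CPM in those of batch 2, the last being rich in B cell transcripts. The groups of Txk overlapped, with a log2 fold change of -0.69 (SE 0.15, adjusted p = 0.0338) that was -1.04 within batch 1 and -0.27 within batch 2. Txk lost its call when any 1 library other than OVA batch 2 replicate 2 was left out, with values from -0.84 to -0.58. Ubash3b kept its call in all 9 of these fits, with values from 0.95 to 1.19. Neither batch alone gave a call for Ubash3b, with 0.76 (adjusted p = 0.0996) in batch 1 and 1.30 (adjusted p = 0.526) in batch 2. Without libraries rich in B cell transcripts 6 members were called, with Cd247, Cd5 and Sla higher and Sit1 lower beside these 2. The count over all genes in that fit is not given here, so the 6 have no background to be read against.

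Plain OVA against saline called 0 of the 34 genes in prophylactic OT-II cells by edgeR, DESeq2 or limma voom, beside 0.163% of all genes, and 2 members had an unadjusted p under 0.05. These were Txk, with a log2 fold change of -0.42 (adjusted p = 0.514), and Ptpn22, with 0.35 (adjusted p = 0.65). This comparison shares its saline libraries with the one of pGal, and the spread of the 4 OVA libraries was wide. Ubash3b had 0.22, Sit1 -0.47 and Sla2 -0.41.

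**Figure D3:**
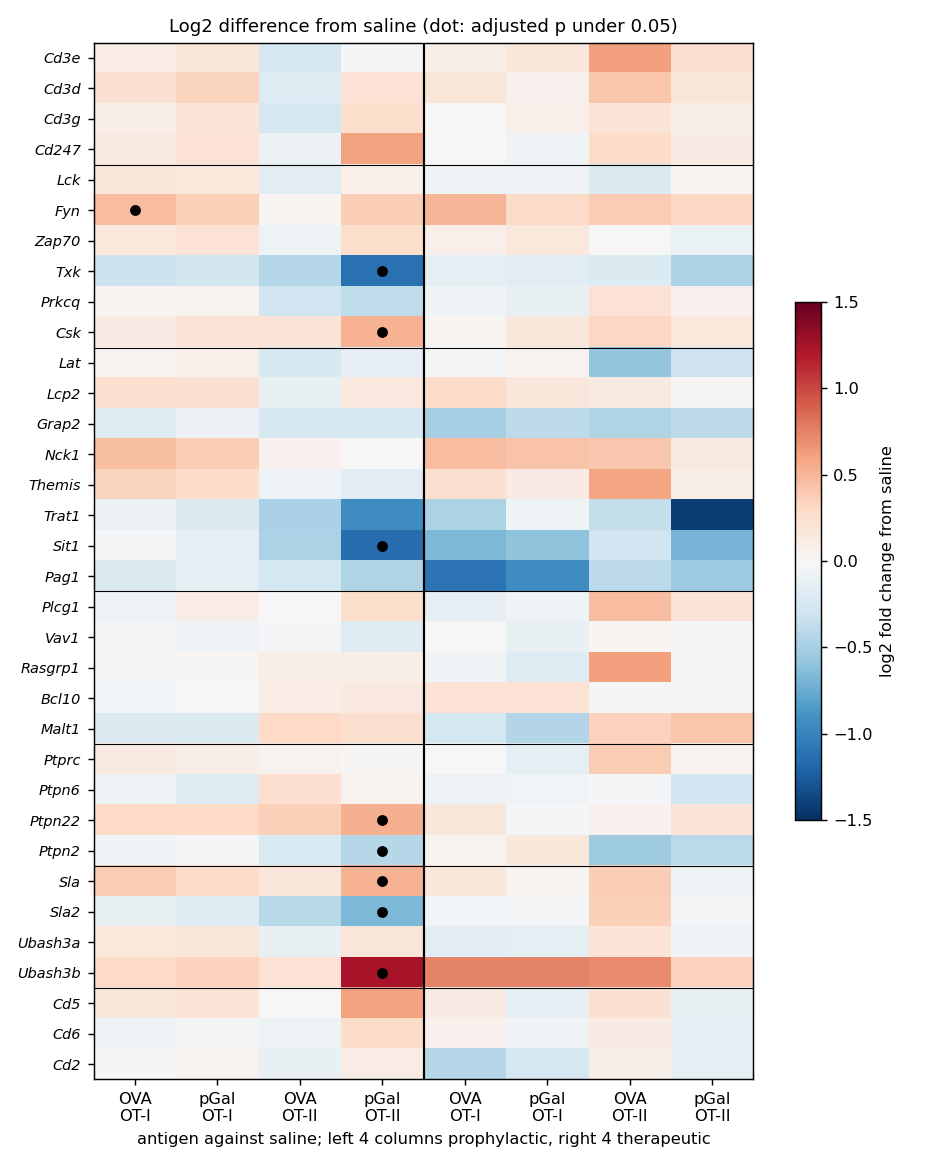
Log2 fold change from saline (color) of each of the 34 genes (vertical axis, in order of role) after OVA and pGal, in OT-I and OT-II cells of both experiments (horizontal axis). Dots mark an adjusted p under 0.05. The 8 dots of prophylactic OT-II cells after pGal and the 1 of Fyn in prophylactic OT-I cells after OVA are the only ones in these 8 comparisons.

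In CD8 cells of naive recipients 1 of the 34 genes, Fyn, rose after OVA. Fyn, the SRC family kinase that phosphorylates CD3 chains beside LCK, was at 610, 633, 644, 605 and 717 CPM after saline. It was at 739, 900, 966, 865 and 849 CPM after OVA. The groups did not overlap, and the log2 fold change was 0.46 (SE 0.13, adjusted p = 0.0455, edgeR), beside 5.39% of all 13802 genes called. The call was close to the threshold and was lost when any 1 library other than the 2 OVA libraries of batch 2 was left out, with values from 0.38 to 0.51. The lowest value, 0.38, was that without OT-I saline batch 2 replicate 1, which was rich in B cell transcripts. The call was lost too without the mixed OT-I libraries (0.48). The groups of Nck1, an adaptor that links the receptor to actin, did not overlap either (0.46, adjusted p = 0.0803).

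After pGal 0 of the 34 genes were called in prophylactic OT-I cells by edgeR and voom, beside 3.35% of all genes, and 1 by DESeq2. Of the members 15 had an unadjusted p under 0.05, 12 of them higher. The share of all genes at that unadjusted p was not counted, so the 15 cannot be read as a trait of these genes. The smallest adjusted p belonged to Cd3d, a receptor chain, with a log2 fold change of 0.33 (95% interval 0.13 to 0.53, adjusted p = 0.0612), followed by Csk with 0.19 (adjusted p = 0.129). Between pGal and OVA 0 members and 0% of all genes were called in OT-I cells by edgeR, 0 members by the other tools, and 0 had an unadjusted p under 0.05. Log2 fold changes of the 34 genes there had a median size of 0.06, beside 0.11 over all genes. Plcg1, the phospholipase that starts the calcium signal, had 0.19 and Grap2, an adaptor that carries SLP-76 to LAT, had 0.10.

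The difference between the cell types in the response to pGal passed its own test for Txk and Ubash3b. The interaction term, pGal minus saline in OT-I minus the same in OT-II, was 0.84 for Txk (SE 0.19, adjusted p = 0.0213) and -0.90 for Ubash3b (SE 0.22, adjusted p = 0.044), beside 1.21% of all genes. Within batch 1 and batch 2 it was 0.89 and 0.73 for Txk and -1.22 and -0.48 for Ubash3b, and batch 2 alone gave no call. Without the mixed OT-I libraries Ubash3b had -0.80 and lost its call (adjusted p = 0.0924). In OT-I cells Ubash3b was at 57.1 ± 6.49 CPM after saline and 71.5 ± 13.7 CPM after pGal, and Txk was at 241 ± 37.8 and 199 ± 26.7 CPM (SD, n = 5 each). The saline libraries of OT-I cells, at 50.5 to 64.5 CPM of Ubash3b, overlapped the pGal libraries of OT-II cells. Leaving out each saline library in turn ended the Ubash3b call in 8 of 10 fits, all but those without OT-II saline batch 1 replicate 1 or batch 2 replicate 2, with values from -0.98 to -0.83. The Txk call was lost in 2 of them, without OT-I saline batch 1 replicate 1 or batch 2 replicate 1, with values from 0.78 to 0.96 over all 10. Sit1 had an interaction of 1.01 that did not pass (adjusted p = 0.125). For the differences OVA minus saline and pGal minus OVA, 0 members were called by edgeR, beside 0.0337% and 0.519% of all genes. At an unadjusted p under 0.05 there were 0 and 4 members, and DESeq2 called 0 and 2.

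In mice primed with adjuvant a month earlier, edgeR called 0 of the 34 genes in each of the 6 comparisons of treatments. The shares of all genes called were 0% for pGal against saline, 0.686% for OVA against saline and 0% for pGal against OVA in OT-I cells. They were 0.00702%, 1.54% and 0% in OT-II cells. At an unadjusted p under 0.05 there were 7, 7 and 0 members in OT-I and 5, 8 and 4 in OT-II cells, in the same order, without a count over all genes. DESeq2 called 0, 3 and 0 in OT-I and 1, 1 and 0 in OT-II cells, and voom called 2 for OVA against saline in OT-I cells and 0 elsewhere.

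The nearest to the threshold were Sit1 and Fyn in OT-I cells after OVA. Sit1 ranged from 128 to 202 CPM with a median of 157 in the 6 saline libraries. It ranged from 76.6 to 152 CPM with a median of 104 in the 8 OVA libraries, and the groups overlapped. Its log2 fold change was -0.67 (SE 0.16, adjusted p = 0.0503), and that of pGal against saline was -0.60 (adjusted p = 0.488). Fyn had a median of 941 CPM (669 to 1077) after saline and 1402 CPM (885 to 1651) after OVA, with a log2 fold change of 0.51 (SE 0.12, adjusted p = 0.0507). DESeq2 called both, with Pag1 lower, an adaptor that holds CSK at the membrane (edgeR -1.11, adjusted p = 0.108). Ubash3b had log2 fold changes of 0.74 after each antigen in OT-I cells that did not pass (adjusted p = 0.495 for pGal and 0.114 for OVA).

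In therapeutic OT-II cells Trat1 after pGal had the largest difference of any member in the 3 comparisons. It had a median of 79.4 CPM (36.6 to 111) in 6 saline libraries and 32.1 CPM (9.62 to 42.7) in 8 pGal libraries. The groups overlapped through the lowest saline library. The log2 fold change was -1.41 (SE 0.30, adjusted p = 0.0713), and Sit1 had -0.70 (adjusted p = 0.265). After OVA the smallest p belonged to Ptpn2, with -0.54 (adjusted p = 0.11), and Ubash3b had 0.71 (adjusted p = 0.149). Between pGal and OVA Trat1 had -1.05 and Rasgrp1, the exchange factor that activates RAS, had -0.65 (adjusted p = 0.672 for each). In OT-I cells the same comparison had Fyn at -0.21 and Cd5, an inhibitory surface receptor, at -0.24.

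The response to pGal was also compared between the experiments. In OT-II cells the pGal effect, therapeutic minus prophylactic, was 0.66 for Txk (adjusted p = 0.241) and -0.88 for Ubash3b (adjusted p = 0.257). In OT-I cells it was -0.45 for Sit1 (adjusted p = 1). None of the 34 genes was called by edgeR in these interactions, beside 0.8% of all genes in OT-II and 0.11% in OT-I cells, and DESeq2 called 0 in both. The members with an unadjusted p under 0.05 numbered 5 and 0. For pGal minus OVA in OT-II cells edgeR also called 0 of the 34 genes, beside 0.232% of all genes, with 6 at an unadjusted p under 0.05 and 1 called by DESeq2. A difference between the experiments in the members' response to pGal was therefore not shown.

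The cell types were also compared without antigen. In prophylactic saline libraries 8 of the 34 genes were higher in OT-I than in OT-II cells and 2 were lower, beside 18% of all 14845 genes called (9.89% higher and 8.08% lower). The higher genes were Ubash3b, Malt1, Cd6, Ptpn22, Ptpn6, Sla, Sla2 and Ptprc, and the lower ones Trat1 and Sit1. Groups were apart for 9 members, 8 of them called and Ubash3a, lower in OT-I cells without passing the test. The share of all genes with groups apart was not counted here either.

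Trat1 differed most, at 52.1, 45.4, 53.7, 27.0 and 30.0 CPM in OT-I cells. It was at 126, 134, 139, 77.7 and 114 CPM in OT-II cells. Each OT-I library was below each OT-II library, with a log2 fold change of -1.58 (SE 0.25, adjusted p = 5.99e-05). Ubash3b was 1.93-fold higher in OT-I cells (log2 fold change 0.95, adjusted p = 0.00011), at 50.5 to 64.5 CPM against 24.2 to 35.6 CPM. Ptpn22 was 1.84-fold higher (0.88, adjusted p = 0.000108), at 408 to 491 CPM against 208 to 262 CPM. Ptpn6, which encodes the phosphatase SHP-1, was at 1091 ± 223 CPM in OT-I and 594 ± 117 CPM in OT-II cells (0.86, adjusted p = 0.001).

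Cd6, a surface receptor that binds SLP-76 and can inhibit or costimulate, was at 933 ± 127 against 498 ± 96.7 CPM (0.89, adjusted p = 0.000964). Malt1, a protease and scaffold that leads to NF-kappaB activation, was at 184 ± 16.8 against 99.4 ± 38.3 CPM (0.90, adjusted p = 0.00961). In OT-II cells Malt1 was higher in both batch 2 libraries, at 156 and 119 CPM, than in the 3 of batch 1, at 58.0 to 86.6 CPM. Sla (0.67), Sla2 (0.65) and Ptprc (0.36), which encodes the CD45 phosphatase that activates LCK, were higher too, and Sit1 was lower (-0.74, adjusted p = 0.0191). In batch 1 alone the differences were 1.15 for Ubash3b, 0.75 for Ptpn22 and -1.40 for Trat1, and in batch 2 alone they were 0.67, 1.00 and -1.75. Batch 2 alone called 0 of the members. None of 13 B cell markers was called in this comparison, but each group held 1 library rich in B cell transcripts. The summed level of these markers ranged from 72.2 to 1885 CPM in OT-I and from 58.8 to 880 CPM in OT-II cells. This spread limits what the test of the markers can show.

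**Figure D4:**
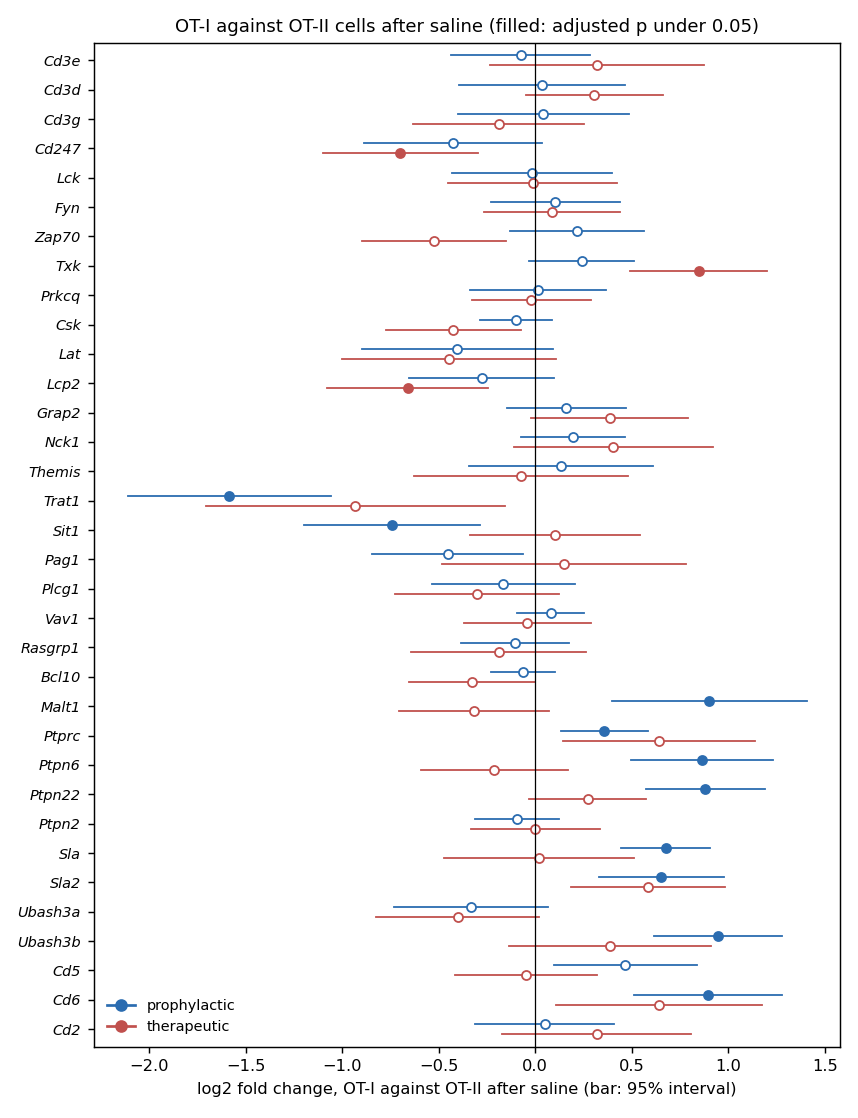
Log2 fold change between OT-I and OT-II cells after saline (horizontal axis) for each of the 34 genes, with 95% intervals, in the prophylactic (blue) and therapeutic (red) experiment. Filled points passed an adjusted p of 0.05. Of the prophylactic points Trat1 at -1.58 is the lowest and Ubash3b at 0.95 the highest.

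In therapeutic saline libraries that match their label, 3 members were called between the cell types, beside 9% of all 15747 genes. Txk was higher in OT-I cells, at 112 to 153 CPM with a median of 128, than in OT-II cells, at 55.7 to 88.0 CPM with a median of 72.4. The groups were apart, with a log2 fold change of 0.85 (SE 0.17, adjusted p = 0.000624). Cd247 was lower in OT-I cells, with medians of 347 and 590 CPM (-0.70, adjusted p = 0.0172), and so was Lcp2, with medians of 370 and 580 CPM (-0.66, adjusted p = 0.0313). Both overlapped between the groups. On the opposite strand, exons of Cd247 share 3007 bases with Pou2f1 and those of Lcp2 share 282 bases with 4930469K13Rik. With the 11 libraries counted under their labels, 0 members and 0 genes were called. Malt1 had -0.32, Ptpn6 -0.21 and Sla 0.02 here, and whether the cell type difference itself differs between the experiments was not tested.

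The experiments were compared within each cell type after saline. They differ in priming, in the time since transfer, in mice per library and in how sorted cells were stored, and these cannot be told apart. Txk and Rasgrp1 were lower in the therapeutic experiment in both cell types. In OT-I cells 3 of the 34 genes were higher and 4 lower, beside 21.6% of all 15428 genes (11.5% higher and 10% lower), and in OT-II cells 5 were higher and 2 lower, beside 16.6% of all 15505 genes (10.2% higher and 6.35% lower). The share of members called was 20.6% in each cell type, close to the background. The median size of the members' log2 fold change was 0.25 in OT-I and 0.34 in OT-II cells, beside 0.53 and 0.54 over all genes.

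Txk was at 241 ± 37.8 CPM (SD, n = 5) in prophylactic and 129 ± 15.4 CPM (SD, n = 6) in therapeutic OT-I cells (-0.85, SE 0.17, adjusted p = 0.000259). In OT-II cells it was at 206 ± 22.0 and 72.1 ± 14.6 CPM (-1.45, SE 0.16, adjusted p = 1.03e-07). The experiments did not overlap in either cell type. Rasgrp1 was at 405 ± 103 and 218 ± 43.0 CPM in OT-I cells (-0.89, adjusted p = 0.000237) and at 436 ± 115 and 251 ± 55.0 CPM in OT-II cells (-0.80, adjusted p = 0.0106).

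In OT-I cells Lat (0.71), Fyn (0.51) and Sit1 (0.46) were higher in the therapeutic experiment, and Sla2 (-0.56) and Bcl10 (-0.39), the partner of MALT1, were lower. Lat, the scaffold of the membrane complex, was at 525 ± 91.1 CPM in prophylactic and 815 ± 158 CPM in therapeutic OT-I cells (adjusted p = 0.0288). The calls of Lat, Fyn and Sit1 were lost in 4, 2 and 5 of the 5 fits that left out 1 prophylactic library, and 4 members were called without OT-I saline batch 2 replicate 2. All 3 were lost without OT-I saline batch 2 replicate 1, the library rich in B cell transcripts, where Fyn had 0.41 and Themis was called lower. In OT-II cells Malt1 (1.00), Ptpn22 (0.92), Ptpn6 (0.81), Zap70 (0.72) and Sla (0.67) were higher. Without OT-II saline batch 2 replicate 1, which was rich in B cell transcripts, Sla had 0.60 (adjusted p = 0.0774) and Rasgrp1 -0.72 (adjusted p = 0.0504), and both lost their calls. Zap70 was at 182 to 226 CPM in the prophylactic libraries and at 230 to 528 CPM in the therapeutic ones, without overlap. Of 13 B cell markers 1 was higher in OT-I and 0 in OT-II cells, and of 10 NK cell markers, some of which effector CD8 cells also express, 5 were higher in OT-I cells. Of 10 heat shock and sorting stress genes 6 were higher in therapeutic OT-I and 5 in therapeutic OT-II cells, and 0 were lower. Their summed level was 3218 to 5575 CPM in prophylactic and 9855 to 19285 CPM in therapeutic OT-I libraries, and 4982 to 8721 CPM against 15453 to 39433 CPM in OT-II libraries, without overlap. The part of such transcripts in these results was not tested.

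**Figure D5:**
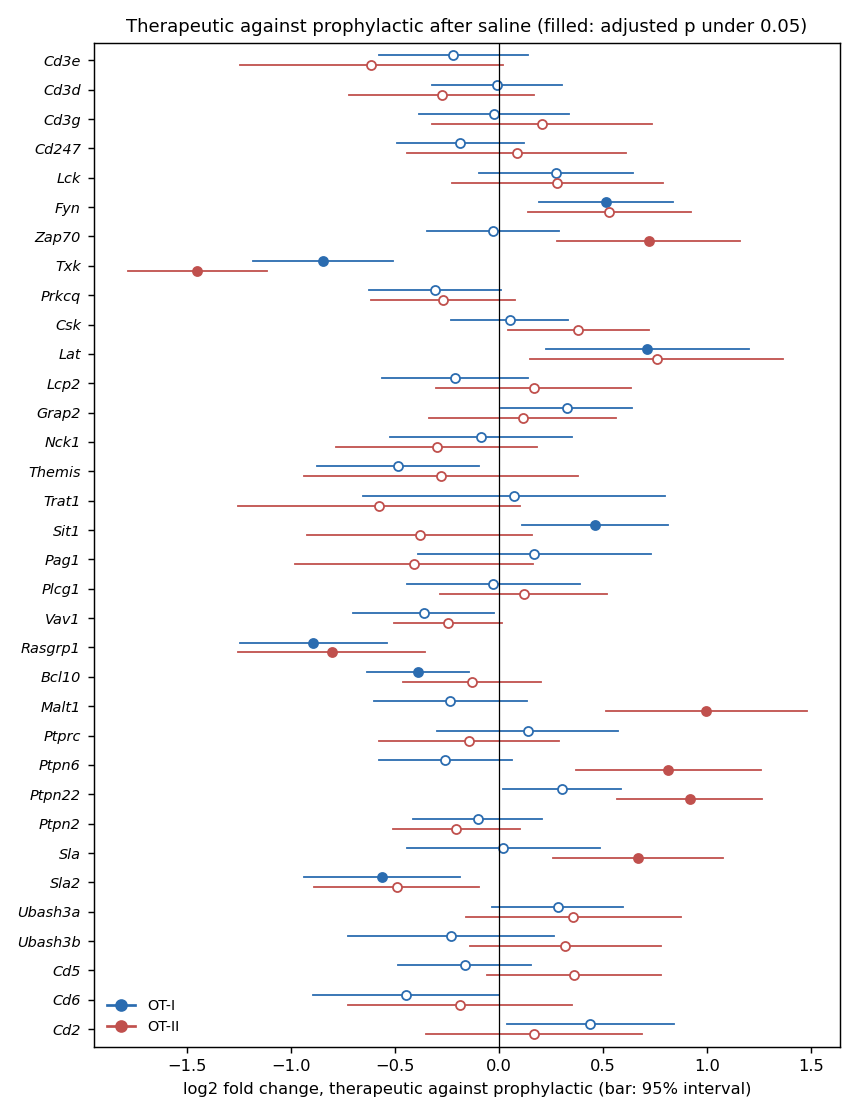
Log2 fold change between the therapeutic and prophylactic experiments after saline (horizontal axis) for each of the 34 genes, with 95% intervals, in OT-I (blue) and OT-II (red) cells. Filled points passed an adjusted p of 0.05. Txk is filled and left of 0 in both, at -0.85 and -1.45, as is Rasgrp1, at -0.89 and -0.80.

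Of the 34 genes 14 passed the test in none of these comparisons. They were the chains Cd3e, Cd3d and Cd3g, the kinases Lck and Prkcq, the adaptors Grap2, Nck1, Themis and Pag1, the effectors Plcg1 and Vav1, Ubash3a, Cd5 and Cd2. Themis, which tunes receptor signals in developing T cells, had its largest difference between treatments after OVA in therapeutic OT-II cells, 0.60 from saline (adjusted p = 0.362). Vav1, an exchange factor for small GTPases, stayed within -0.19 to 0.03 in the 8 comparisons of an antigen with saline. Cd2, an adhesion receptor for CD48, was at 618 ± 121 CPM in OT-I and 586 ± 123 CPM in OT-II cells after saline in the prophylactic experiment.

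Other genes of the pathway were taken from a list of 63 further genes in the tables. After pGal in prophylactic OT-II cells 10 of them rose, beside 6.37% of all genes called higher. The largest rises were those of Ptpn7, a phosphatase of MAP kinases (1.09, adjusted p = 0.00127), Nfatc1, a calcium-regulated transcription factor (0.99, adjusted p = 8.59e-05), and Ptpn11, the phosphatase SHP-2 (0.92, adjusted p = 0.00359). Dgkz, a kinase that removes diacylglycerol, rose by 0.86 on the log2 scale. The interaction between cell types passed for Nfatc1 (-0.78, adjusted p = 0.00336), whose response to pGal was smaller in OT-I cells. Pik3r1, a regulatory subunit of phosphoinositide 3-kinase, fell (-0.56, adjusted p = 0.0212). Against OVA 3 were higher after pGal and 0 lower, beside 1.87% of all genes called in either direction, namely Ptpn7 (0.82), Nfatc1 (0.58) and Was (0.57), the actin regulator.

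In prophylactic OT-I cells 9 of the 63 rose after pGal and 11 after OVA, and 0 fell in either, beside 3.35% and 5.39% of all genes called in either direction. Cd28, the costimulatory receptor, rose by 0.80 and 0.82 on the log2 scale and Ptpn7 by 0.67 and 0.85. These comparisons share their saline libraries. In therapeutic cells Nfatc2 (0.85) and Stim1 (0.82), the calcium sensor of the endoplasmic reticulum, rose in OT-II cells after OVA, the 2 calls among the 63 genes in the 6 treatment comparisons there, beside 1.54% of all genes in that comparison.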

How the data were processed

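RNA of sorted OT-I and OT-II cells was sequenced after SmartSeq amplification, per the labels' protocols. The authors deposited estimated counts per gene in 3 tables; the submitters' processing notes name bcl2fastq, kallisto 0.46.1 and GRCm38, and how transcripts were summed to genes was not given in the sources used here. These counts were used as deposited, without a rounding step. R 4.3.3 with edgeR 4.0.16 (TMM factors, filterByExpr, robust quasi-likelihood test, Benjamini-Hochberg adjustment over all genes tested, threshold 0.05) was fitted per experiment and cell type with all 3 treatments, with batch as a term in the prophylactic experiment. Cell types and experiments were compared in joint fits. Intervals are 95% and not adjusted. Counts of members at an unadjusted p under 0.05 have no share of all genes beside them, because that share was not counted. Therapeutic fits used the 42 libraries whose Cd4 and Cd8a match the label. DESeq2 1.42.0, limma 3.58.1 voom, other factors, no filter, each batch alone, a replicate block and leaving out libraries were alternatives. Leaving out libraries rich in B cell transcripts, mixed OT-I libraries or therapeutic libraries with many genes detected was chosen after seeing the data. Figures used Python 3.11.15 and matplotlib 3.10.9. No pair of libraries was identical (0 pairs).

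The members and lists were chosen with earlier results of these data known. Values by library are given for called members, up to 4 in each direction per treatment comparison and up to 5 per comparison of cell types or experiments, or for the 2 with the smallest p where none is called; all 34 are named. Of other pathway genes up to 4 called per comparison are named. Not every gene of that list is reported here. Tested on data simulated for pGal against saline, the fit recovered 59.7% of 67 genes changed 2-fold among 13802 in prophylactic OT-I, 34.3% among 14128 in prophylactic OT-II, 52.2% among 14581 in therapeutic OT-I and 29.9% among 14244 in therapeutic OT-II libraries. Of 67 genes changed 1.5-fold it recovered 43.3%, 8.96%, 2.99% and 4.48% in the same order. Most changes of that size were thus missed in the simulation, above all for the therapeutic libraries. Fewer genes were changed in the simulation than the 1655 called between pGal and saline in prophylactic OT-II cells. The adjustment of p depends on that number, so recovery in the real comparison may differ. The changed genes were drawn from all genes tested and not at the members' levels.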

Additional observations from a re-analysis of the deposited data

Results flagged for a closer look

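Of 68 groups of values looked at, 4 held a library that stood apart from the rest of its group, where chance gives about 1 in 20 groups. The mean log2(CPM + 1) of the 34 genes was 7.47 in prophylactic OT-II OVA batch 2 replicate 2 and 7.88 in prophylactic OT-II pGal batch 1 replicate 3, which had summed B cell marker levels of 8024 and 4181 CPM. It was 7.45 in therapeutic OT-II pGal replicate 9, with 22.6 M counts in all. Sla stood apart at 286 CPM in prophylactic OT-II saline batch 2 replicate 2.

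In the prophylactic experiment the log2 response to pGal in OT-I cells minus that in OT-II cells was 0.84 for Txk and -0.90 for Ubash3b, each past the threshold of the interaction test. The value for Ubash3b was -1.22 in batch 1 and -0.48 in batch 2 alone, and its call was lost in 8 of 10 fits that left out 1 saline library and without the mixed OT-I libraries.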

How the results depend on the processing

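Counts of members called, out of 34, moved as follows. Counts of all genes called in these fits are not given beside them, so a move may not be particular to the members. For pGal against saline in prophylactic OT-II cells (8 called) batch 2 alone gave 0, leaving out libraries rich in B cell transcripts 14 and leaving out 1 library 4 to 8. For pGal against OVA there (2 called) batch 2 alone and the replicate block gave 0, leaving out B-rich libraries 6 and leaving out 1 library 1 to 4, the 4 without OVA batch 2 replicate 2. For OVA against saline in prophylactic OT-I cells (1 called) DESeq2 gave 5, batch 1 alone 2, and RLE factors, batch 2 alone, no filter, the replicate block, and leaving out B-rich or mixed libraries 0, with 0 to 1 when 1 library was left out. For pGal against saline in prophylactic OT-I cells (0 called) DESeq2 gave 1, batch 2 alone 3 and leaving out 1 library 0 to 1. In the therapeutic experiment (0 called) OVA against saline gave 3 with DESeq2, 2 with voom and 2 with all libraries as labelled in OT-I cells, and DESeq2 gave 1 for OVA and 1 for pGal against saline in OT-II cells. For the interaction of cell types with pGal minus saline (2 called) batch 1 alone gave 4, batch 2 alone 0, no filter 1, leaving out B-rich libraries 4, leaving out mixed libraries 1 and leaving out 1 library 0 to 2. For pGal minus OVA (0 called) DESeq2 gave 2, RLE factors 1, batch 1 alone 3 and leaving out B-rich libraries 3, and the same contrast between experiments in OT-II cells gave 1 with DESeq2 and 1 with RLE factors. Between cell types after saline batch 2 alone gave 0 in the prophylactic experiment (10 called), and in the therapeutic one (3 called) DESeq2, RLE factors and the replicate block gave 5 and all libraries as labelled 0. Between experiments in OT-I cells (7 called) leaving out 1 library gave 4 to 5. Grap2 between pGal and OVA in prophylactic OT-I cells reversed in batch 2 alone, to -0.10. The cause of these changes was not tested. The labels do not say what a replicate number marks. Across treatments same-numbered libraries had a median correlation of -0.041 in the prophylactic and 0.133 in the therapeutic experiment. Across cell types, which were transferred into the same recipients, it was 0.196 in the prophylactic experiment (11 of 14 pairs over 0.1) and 0.181 in the therapeutic one (11 of 19). OT-I and OT-II libraries of 1 number may therefore share mice. Libraries of different number had -0.175 and -0.165. The correlations are of deviations from group and batch means, which sum to 0. Values for different numbers are thus tied to those for the same number and are not an independent comparison. Not every pair was over 0.1, and the numbers were not taken as pairs in the tests. With the replicate block between cell types after saline, 12 members were called in the prophylactic experiment, among them the same 10, and the same 3 were among the 5 in the therapeutic one. The interaction for pGal minus saline kept both its calls with it. Between pGal and OVA in prophylactic OT-II cells the block gave 0.98 for Ubash3b (adjusted p = 0.0521) and -0.69 for Txk (adjusted p = 0.146). Between pGal and saline there Sit1 (adjusted p = 0.0536) and Sla2 (adjusted p = 0.0933) lost their calls with it. Batch 2 had 2 libraries per group, which limits what it can show.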
